A study of Homo sapiens with 16 samples.

Results

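Transcript levels of 10 genes of the oxidative stress and iron storage response were followed in the lung cancer cell line HCC4006, which carries an activating EGFR mutation. The genes were AKR1B10, AKR1C1, AKR1C3, NQO1, GCLC, GCLM, TXNRD1, FTH1, FTL and HMOX1, chosen by symbol from the 24293 loci of the deposited table, and each symbol was found on exactly 1 locus. Cells had received DMSO (vehicle), gefitinib at 100 nM, AZ1366 at 100 nM, or both compounds at 100 nM each, for 24 hours. Gefitinib inhibits the EGFR kinase, and AZ1366 inhibits tankyrase, an enzyme that acts in the Wnt pathway. Each of the 4 groups held 4 libraries of polyA RNA. All of them came from this single line, and whether replicates were separate cultures is not given in the sources used here, so the p-values reflect only how these libraries vary, which may be technical.

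NRF2, encoded by NFE2L2, is a transcription factor that KEAP1 marks for degradation until oxidants or electrophiles modify KEAP1. It then binds antioxidant response elements together with a small MAF protein and raises transcription of enzymes that detoxify carbonyls and quinones, make glutathione and reduce thioredoxin. Ferritin, built of the heavy chain FTH1 and the light chain FTL, stores iron, and its translation is also controlled by iron regulatory proteins. In lung cancers with mutated KEAP1 or NFE2L2 the aldo-keto reductases and NQO1 are known as highly expressed NRF2 targets.

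The antioxidant response element is the sequence that NRF2 is known to bind, so the promoter windows of the members were searched for its core. RefSeq windows (GRCh38.p14) from 250 bases before to 50 bases after a transcription start were at hand for 7 of the 10 members, in 9 windows, and AKR1B10, FTH1 and HMOX1 had no entry. The motif TGACNNNGC, read on both strands, was found in 3 of these 9 windows, belonging to GCLM and TXNRD1. Over all windows of this length, 4687 of 35116 (13.3%) held it. Sequence outside the windows was not searched, so a window without the motif does not show that a gene lacks the element. The matches that lie wholly before a start are printed 5′ to 3′ on the strand that carries the motif, with 20 bases on each side and the motif in capitals, and none overlaps TGANTCA.
GCLM, chr1:93909456-93909464, 34 to 26 bases before the start, opposite strand to the gene: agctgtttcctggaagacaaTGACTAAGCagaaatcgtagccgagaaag
TXNRD1, chr12:104215680-104215688, 99 to 91 bases before the start, same strand as the gene: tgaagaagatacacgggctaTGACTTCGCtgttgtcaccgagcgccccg
TXNRD1, second start, chr12:104286930-104286938, 102 to 94 bases before the start, opposite strand to the gene: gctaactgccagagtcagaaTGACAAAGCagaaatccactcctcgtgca
A match is a run of letters and not a shown binding site. Of the genes that carry it, GCLM fell and TXNRD1 rose with both compounds against vehicle.

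Values are FPKM as deposited, a unit of fragments scaled to transcript length and to the mapped total of a library. Any further scaling is not given in the sources used here. Levels can be set side by side between genes, except as far as reads shared by similar genes were split in an unknown way. Of the 10 members, 9 had a mean of at least 1 FPKM over the 16 libraries and entered the fit across 11647 loci. AKR1C1, with a mean of 0.126 FPKM, did not, and AKR1C3 passed only because its treated groups were higher (vehicle mean 0.338 FPKM). Log2 changes are on the log2(FPKM + 1) scale, with the standard error (SE) of the limma fit and Benjamini-Hochberg adjusted p over all tested loci, called below 0.05. The summed FPKM of a library lay between 433357 and 478179. The 6 epithelial markers (EPCAM, KRT7, KRT8, KRT18, KRT19 and CDH1) summed to between 5198 and 5922 FPKM with vehicle and between 3573 and 3964 FPKM with both compounds. KRT7, KRT8, KRT18 and CDH1 were lower with both compounds than with vehicle, EPCAM was higher (0.35 on the log2 scale, adjusted p = 5.98e-06) and KRT19 was at -0.02 (adjusted p = 0.865). Of 9 listed markers of immune, endothelial and stromal cells, COL3A1 was not matched. The rest summed to between 2.39 and 2.88 FPKM with vehicle and between 3.07 and 3.43 FPKM with gefitinib. With AZ1366 the sum was between 2.74 and 2.80 FPKM, and with both compounds between 3.14 and 3.50 FPKM. Most of it came from COL1A1 (mean of 1.73 FPKM with vehicle and 2.01 FPKM with gefitinib). The part of these markers in the results was not tested. In bulk RNA, fewer cells of a type and less RNA per cell cannot be told apart. The lung lineage markers NKX2-1, NAPSA and SFTPB summed to between 5.75 and 10.4 FPKM. Most of that sum came from NKX2-1, while NAPSA and SFTPB were each below the filter on low values. AZ1366 replicate 1 was the highest library of its group for GCLC, GCLM, TXNRD1, NQO1 and FTL and the lowest for FTH1 and AKR1C3.

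The level of FTH1, the ferritin chain that oxidizes iron for storage, rose in each treated group and was highest with both compounds. FTH1 (hg19, chromosome 11, 61717356 to 61735132) ranked 46 of 24293 loci by its vehicle mean. Its vehicle libraries were at 905, 1136, 1147 and 1044 FPKM. Gefitinib libraries were at 2130, 1979, 2077 and 2084 FPKM, AZ1366 libraries at 1424, 1697, 1732 and 1691 FPKM, and libraries with both compounds at 2682, 2824, 2792 and 2929 FPKM. The ranges of the 4 groups do not overlap, in the order vehicle, AZ1366, gefitinib, both. Gefitinib raised the mean 1.95-fold (log2 change 0.97, SE 0.076, adjusted p = 6.67e-09). AZ1366 raised it 1.55-fold (log2 change 0.63, SE 0.076, adjusted p = 7.24e-06), and both compounds raised it 2.65-fold (log2 change 1.41, SE 0.076, adjusted p = 1.73e-11). After quantile normalization, which sets each value by its rank within the library, the change with both was 0.94 (adjusted p = 7.97e-11).

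FTL, the ferritin light chain, which supports mineral formation in the shell, rose with gefitinib but its AZ1366 difference did not pass the test. FTL (chromosome 19, 49468566 to 49470136) was at 542, 445, 540 and 519 FPKM with vehicle and at 598, 583, 535 and 515 FPKM with AZ1366. These 2 groups overlap (log2 change 0.13, SE 0.088, 95% interval -0.06 to 0.31, adjusted p = 0.221). Gefitinib libraries were at 688, 850, 755 and 856 FPKM, and those with both compounds at 945, 1133, 928 and 907 FPKM. All 4 libraries of each of these groups were above every vehicle library, 1.54-fold for the mean with gefitinib (log2 change 0.62, SE 0.088, adjusted p = 9.3e-06) and 1.91-fold with both (log2 change 0.93, SE 0.088, adjusted p = 2.67e-08). The AZ1366 value of FTL depended on the scaling: 0.25 (adjusted p = 0.0232) after median-ratio scaling and -0.03 after quantile normalization. Both ferritin genes have processed pseudogenes, and how the authors' counting split shared reads is not given in the sources used here.

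The share of a library's summed FPKM that came from the pair of ferritin chains was 0.354 ± 0.0176% in vehicle, 0.632 ± 0.00969% in gefitinib, 0.481 ± 0.0319% in AZ1366 and 0.797 ± 0.0258% in combination libraries (SD, n = 4 per group). The ratio of FTH1 to FTL within a library was 2.09 ± 0.363, 2.65 ± 0.346, 2.95 ± 0.415 and 2.89 ± 0.311 in the same order. The vehicle ratio was the lowest group mean, but the groups overlap and no difference passed an exact permutation test (two-sided, adjusted p of 0.286 or more over 15 tests of ratios, smallest possible unadjusted p = 0.0286).

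**Figure D1:**
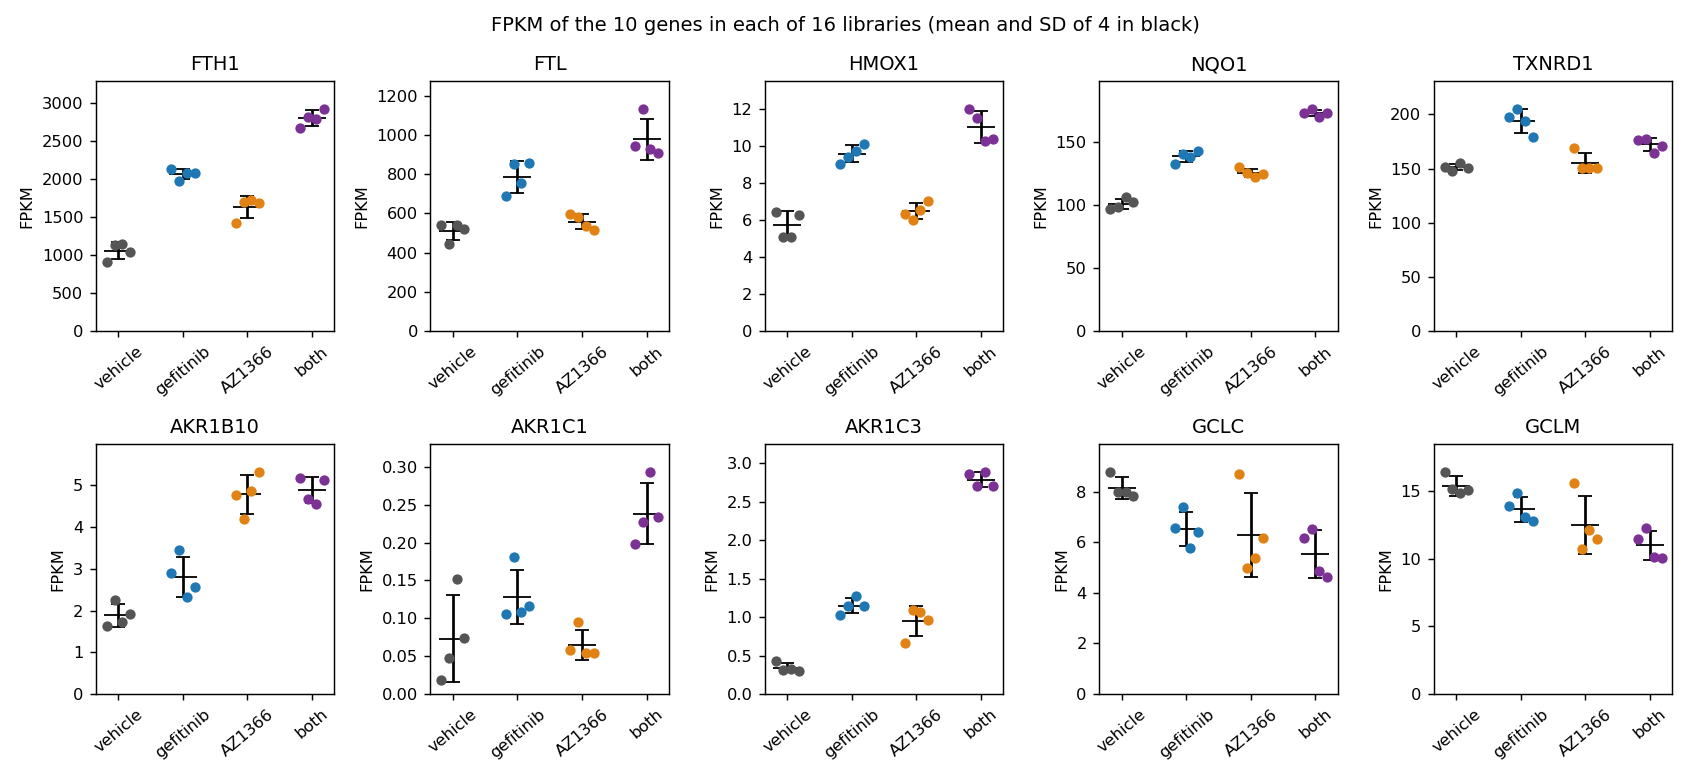
FPKM of each of the 10 genes (vertical axis, linear and starting at 0, own scale per panel) in the 4 groups, with 1 point per library and the group mean and SD as a bar with whiskers. FTH1 separates all 4 groups, FTL separates the groups with gefitinib from the others, and GCLC and GCLM are lower with both compounds than with vehicle.

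HMOX1, heme oxygenase, which frees iron from heme, followed the pattern of FTL at a much lower level. HMOX1 (chromosome 22, 35777060 to 35790207) was at 6.45, 5.06, 5.07 and 6.29 FPKM with vehicle and at 9.06, 9.41, 9.74 and 10.1 FPKM with gefitinib. With AZ1366 it was at 6.32, 6.001, 6.56 and 7.01 FPKM, which overlaps vehicle, and with both compounds at 12.01, 11.5, 10.3 and 10.4 FPKM. The 8 libraries that received gefitinib were above the 8 that did not. HMOX1 rose 1.68-fold with gefitinib (log2 change 0.66, SE 0.076, adjusted p = 8.12e-07) and 1.93-fold with both compounds (log2 change 0.85, SE 0.076, adjusted p = 1.42e-08). Its AZ1366 difference of 0.16 (SE 0.076, adjusted p = 0.0802) missed the threshold, and passed it after quantile normalization (0.30), after median-ratio scaling (0.27), and without vehicle replicate 1 (0.21, adjusted p = 0.0309) or 4 (0.20, adjusted p = 0.0452).

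NQO1, a quinone reductase that uses NADPH and a widely used readout of NRF2 activity, rose with each compound. NQO1 (chromosome 16, 69743304 to 69760533) was at 97.2, 98.1, 106 and 102 FPKM with vehicle, 133, 140, 138 and 142 FPKM with gefitinib, 130, 125, 122 and 125 FPKM with AZ1366, and 173, 176, 170 and 173 FPKM with both compounds. No range overlaps another, in the order vehicle, AZ1366, gefitinib, both. The log2 changes against vehicle were 0.45 with gefitinib (SE 0.043, adjusted p = 8.96e-08), 0.31 with AZ1366 (SE 0.043, adjusted p = 2.86e-05) and 0.77 with both (SE 0.043, adjusted p = 3e-11).

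TXNRD1, the cytosolic thioredoxin reductase, rose with gefitinib and stayed between gefitinib and vehicle with both compounds. TXNRD1 (chromosome 12, 104609557 to 104744085) was at 152, 148, 156 and 150 FPKM with vehicle and at 198, 205, 194 and 179 FPKM with gefitinib. AZ1366 libraries were at 169, 151, 151 and 151 FPKM and those with both compounds at 177, 177, 165 and 171 FPKM. The gefitinib libraries are the 4 highest, and the AZ1366 range overlaps both vehicle and the combination. The log2 change was 0.35 with gefitinib (SE 0.053, adjusted p = 1.49e-05) and 0.19 with both (SE 0.053, adjusted p = 0.0035), the latter depending on the scaling. It was 0.07 (adjusted p = 0.297) after quantile normalization, 0.37 (adjusted p = 7.89e-07) after median-ratio scaling and 0.43 (adjusted p = 2.95e-09) after a correction for transcript length and GC content. With AZ1366 it was 0.04 (SE 0.053, 95% interval -0.08 to 0.15, adjusted p = 0.577), -0.01 without AZ1366 replicate 1, 0.16 (adjusted p = 0.00598) after median-ratio scaling and 0.18 (adjusted p = 0.000281) after the length and GC correction.

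AKR1B10, an aldo-keto reductase that reduces retinal and reactive aldehydes, responded more to AZ1366 than to gefitinib. AKR1B10 (chromosome 7, 134212344 to 134226166) was at 1.64, 2.26, 1.72 and 1.91 FPKM with vehicle and at 2.90, 3.44, 2.33 and 2.56 FPKM with gefitinib. With AZ1366 it was at 4.77, 4.19, 4.87 and 5.33 FPKM, and with both compounds at 5.18, 4.68, 4.55 and 5.12 FPKM. Gefitinib libraries lie above vehicle, and the groups with AZ1366 lie above both and overlap each other. The mean rose 1.49-fold with gefitinib (log2 change 0.40, SE 0.088, adjusted p = 0.000765), 2.54-fold with AZ1366 (log2 change 1.01, SE 0.088, adjusted p = 2.72e-07) and 2.59-fold with both (log2 change 1.03, SE 0.088, adjusted p = 7.38e-09). Adding gefitinib to AZ1366 gave a log2 difference of 0.03 (SE 0.088, 95% interval -0.16 to 0.21, adjusted p = 0.815).

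AKR1C3, which reduces steroids and prostaglandins, had the largest proportional rise of the members at low absolute levels. AKR1C3 (chromosome 10, 5090958 to 5149878) was at 0.425, 0.307, 0.321 and 0.301 FPKM with vehicle, 1.03, 1.14, 1.28 and 1.14 FPKM with gefitinib, 0.664, 1.099, 1.07 and 0.968 FPKM with AZ1366, and 2.86, 2.70, 2.89 and 2.70 FPKM with both. Vehicle is below and the combination above the single compounds, whose ranges overlap. The ratio of means to vehicle was 3.39 with gefitinib, 2.81 with AZ1366 and 8.25 with both. On the log2(FPKM + 1) scale, which understates the change of low genes, the differences were 0.68 (SE 0.066, adjusted p = 1.02e-07), 0.54 (SE 0.066, adjusted p = 8.69e-06) and 1.50 (SE 0.066, adjusted p = 1.26e-12). With 0.1 added in place of 1 they were 1.52, 1.25 and 2.73.

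AKR1C1, a close paralog that inactivates progesterone, was near the bottom of the measured range. AKR1C1 (chromosome 10, 5005454 to 5020158) was at 0.0187, 0.0477, 0.152 and 0.0744 FPKM with vehicle and at 0.106, 0.181, 0.108 and 0.116 FPKM with gefitinib. AZ1366 libraries were at 0.0579, 0.0947, 0.0538 and 0.0539 FPKM and those with both compounds at 0.198, 0.228, 0.294 and 0.234 FPKM, above every other library. The combination was higher than vehicle, gefitinib and AZ1366 by exact permutation tests (two-sided, p = 0.0286 each, the smallest that 70 assignments allow, adjusted p = 0.0429 over 6 comparisons), and gefitinib was higher than AZ1366 with the same p. With a library left out there are fewer assignments, but a test can still pass. Gefitinib against vehicle did so without vehicle replicate 3 (adjusted p = 0.0343). The combination calls were lost without any single combination library (adjusted p = 0.0857) or without gefitinib replicate 2 or 4 (adjusted p = 0.0571). The call of gefitinib against AZ1366 was lost in the same fits (adjusted p = 0.0857). The difference between combination and vehicle was 0.165 FPKM, and 0.147 to 0.191 FPKM with single libraries left out. Gefitinib libraries overlap vehicle (exact p = 0.2, adjusted p = 0.24) and so do AZ1366 libraries (exact p = 0.83). The AKR1C genes resemble each other in sequence, so how reads were divided among AKR1C1, AKR1C2, AKR1C3 and AKR1C4 is uncertain. The ratio of AKR1C1 to AKR1C3 had group means between 0.0699 and 0.230, and no difference passed the exact permutation test.

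GCLC and GCLM, the catalytic and modifier subunits of the enzyme that limits glutathione synthesis, were the members that fell. GCLC (chromosome 6, 53362140 to 53409927) was at 8.80, 7.99, 7.97 and 7.84 FPKM with vehicle, 6.55, 7.40, 5.78 and 6.40 FPKM with gefitinib, 8.68, 4.99, 5.37 and 6.16 FPKM with AZ1366, and 6.16, 6.51, 4.86 and 4.62 FPKM with both. Gefitinib and combination libraries are below every vehicle library, while AZ1366 replicate 1 lies within the vehicle range. GCLC fell by 0.50 on the log2 scale with both compounds (SE 0.124, adjusted p = 0.00139). It fell by 0.35 with AZ1366 (SE 0.124, adjusted p = 0.0221). With gefitinib the log2 difference was -0.28 (SE 0.124, 95% interval -0.54 to -0.02, adjusted p = 0.053), just over the threshold. It passed after quantile normalization (adjusted p = 0.0263), median-ratio scaling (adjusted p = 0.0365) and the length and GC correction (adjusted p = 0.0289). It also passed with the replicate number as a block (adjusted p = 0.0244), with only the libraries compared (adjusted p = 0.00283), and in 5 of the 16 fits that left out 1 library.

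GCLM (chromosome 1, 94352590 to 94375012) was at 16.5, 15.2, 14.8 and 15.1 FPKM with vehicle, 13.9, 14.9, 13.1 and 12.8 FPKM with gefitinib, 15.6, 10.7, 12.1 and 11.5 FPKM with AZ1366, and 11.5, 12.3, 10.1 and 10.1 FPKM with both. Only the combination is wholly below vehicle, and AZ1366 replicate 1 is again within the vehicle range. GCLM fell by 0.45 with both compounds (SE 0.091, adjusted p = 0.000191) and by 0.29 with AZ1366 (SE 0.091, adjusted p = 0.011). With gefitinib the difference was -0.16 (SE 0.091, 95% interval -0.35 to 0.03, adjusted p = 0.127). Without AZ1366 replicate 1 the AZ1366 log2 changes were -0.50 for GCLC (adjusted p = 0.00024) and -0.40 for GCLM (adjusted p = 0.000103). The GCLC call with AZ1366 was lost without vehicle replicate 1 (adjusted p = 0.0625), AZ1366 replicate 2 (adjusted p = 0.085) or AZ1366 replicate 3 (adjusted p = 0.0739), with no filter on low values (adjusted p = 0.0504) and after quantile normalization (-0.20, adjusted p = 0.0533). Quantile normalization also brought GCLM to -0.14 with AZ1366 (adjusted p = 0.0338) and GCLC and GCLM to -0.29 and -0.22 with both compounds, all still called. The ratio of GCLM to GCLC was 1.89 ± 0.0278 for vehicle, 2.10 ± 0.121 for gefitinib, 2.02 ± 0.220 for AZ1366 and 2.01 ± 0.155 for the combination (SD, n = 4), and no difference passed the exact permutation test after adjustment (gefitinib against vehicle exact p = 0.0286, adjusted p = 0.286).

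Counted against vehicle, 7 of the 9 tested members were called with gefitinib, all higher, where 64.6% of all tested loci were called, 27.7% higher and 36.9% lower. With AZ1366 4 members were called higher and 2 lower, where 58.4% of loci were called, 18.6% higher and 39.8% lower. After median-ratio scaling 7 were called higher and 2 lower with AZ1366, where 3540 of 11647 loci were called higher and 3534 lower. With both compounds all 9 were called, 7 higher and 2 lower, where 79.3% of loci were called, 29.9% higher and 49.4% lower. The members were chosen with earlier results of these data known, so the counts are not an independent test of these genes. These 3 comparisons share their vehicle libraries. AKR1C3 is among the members called higher in each, and it passed the filter on low values only through its treated groups. Its place in these counts, and in the later ones that include it, is thus not free of the filter. The median of all tested loci was itself below 0, at -0.06 with gefitinib, -0.10 with AZ1366 and -0.15 with both, and median-ratio scaling moved the last 2 to 0.0038 and 0.0027. Relative to the median, the combination changes were 1.56 for FTH1, 1.18 for AKR1B10, 0.34 for TXNRD1, -0.30 for GCLM and -0.34 for GCLC. Under that scaling the loci called with AZ1366 split into 3540 higher and 3534 lower, against 2168 and 4633, and with both compounds into 4708 and 4691, against 3488 and 5753.

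**Figure D2:**
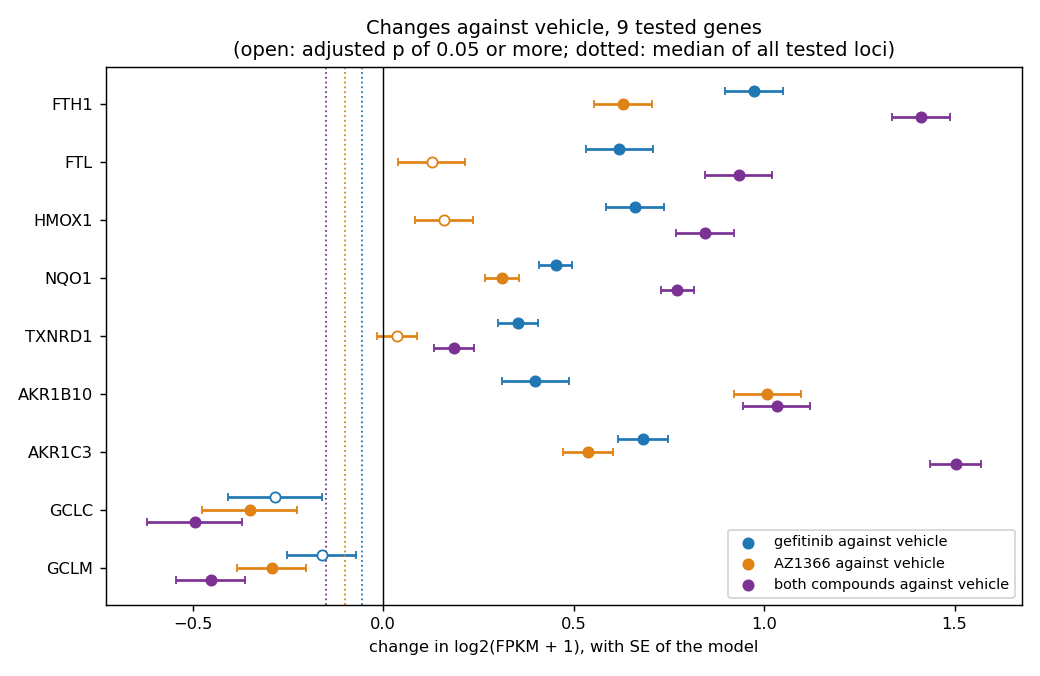
Change in log2(FPKM + 1) against vehicle (horizontal axis) of the 9 tested members with gefitinib, AZ1366 and both compounds. Points are model estimates (open where the adjusted p was 0.05 or more), whiskers their SE and dotted lines the median of all tested loci. AKR1C3 and FTH1 reach 1.50 and 1.41 with both compounds, and GCLC and GCLM are below 0 in all 3 comparisons.

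Adding AZ1366 to gefitinib addresses what the tankyrase inhibitor changed beyond EGFR inhibition. Of the 9 tested members, AKR1B10, AKR1C3, NQO1, FTH1 and FTL were higher and GCLM and TXNRD1 lower than with gefitinib alone, 7 in all, where 52.5% of loci were called, 15.3% higher and 37.2% lower. AKR1C3 had the largest of these log2 differences, 0.82 (SE 0.066, adjusted p = 1.2e-07), followed by AKR1B10 with 0.63 (SE 0.088, adjusted p = 2.74e-05). FTH1 differed by 0.44 (SE 0.076, adjusted p = 0.000214), FTL by 0.31 (SE 0.088, adjusted p = 0.00724) and NQO1 by 0.32 (SE 0.043, adjusted p = 2.24e-05). HMOX1 was just over the threshold (0.18, SE 0.076, adjusted p = 0.0504). It passed with the replicate number as a block (adjusted p = 0.0417), after quantile normalization (0.33, adjusted p = 0.00165), after median-ratio scaling (0.29, adjusted p = 0.00377), after the length and GC correction (0.16, adjusted p = 0.0299) and in 8 of the 16 fits that left out 1 library. GCLM fell by 0.29 (SE 0.091, adjusted p = 0.0133) and TXNRD1 fell by 0.17 (SE 0.053, adjusted p = 0.0134).

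Some of these calls depended on the scaling. The FTH1 difference was 0.0062 (adjusted p = 0.937) after quantile normalization. FTL was at 0.13 (adjusted p = 0.25) after quantile normalization and at 0.17 (adjusted p = 0.134) after the length and GC correction. TXNRD1 was at -0.05 (adjusted p = 0.348) after median-ratio scaling and at -0.0063 (adjusted p = 0.89) after the length and GC correction, and GCLM at -0.15 (adjusted p = 0.0601) after that correction. The TXNRD1 call was also lost without gefitinib replicate 2 (adjusted p = 0.0533) or combination replicate 3 (adjusted p = 0.0504).

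Adding gefitinib to AZ1366 raised 6 of the 9 tested members, AKR1C3, NQO1, TXNRD1, FTH1, FTL and HMOX1, and lowered none, where 62.6% of loci were called, 26.9% higher and 35.7% lower. The differences were 0.96 for AKR1C3, 0.81 for FTL, 0.78 for FTH1 (0.46 after quantile normalization), 0.69 for HMOX1, 0.46 for NQO1 and 0.15 for TXNRD1. The TXNRD1 call was lost without AZ1366 replicate 4 (adjusted p = 0.0517) and after quantile normalization (0.09, adjusted p = 0.201). GCLC (-0.14, 95% interval -0.41 to 0.12) and GCLM (-0.16, 95% interval -0.35 to 0.03) did not pass. Set directly against each other, gefitinib gave higher levels than AZ1366 for NQO1, TXNRD1, FTH1, FTL and HMOX1 and a lower level for AKR1B10, 6 of 9 in all, where 46.0% of loci were called, 28.1% higher and 17.9% lower. The difference was -0.61 for AKR1B10 (SE 0.088, adjusted p = 2.22e-05) and 0.50 for HMOX1 (SE 0.076, adjusted p = 3.39e-05). For NQO1 it was 0.14 (SE 0.043, adjusted p = 0.0132), 0.08 (adjusted p = 0.23) after median-ratio scaling and 0.07 (adjusted p = 0.162) after the length and GC correction.

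The interaction term asks whether the log2 change with both compounds departs from the sum of the single changes. None of the 9 tested members passed it by limma, where 1.82% of loci were called (0.326% higher and 1.49% lower), and 3 had an unadjusted p below 0.05. AKR1B10 was below the sum (-0.37, SE 0.125, adjusted p = 0.161), as was TXNRD1 (-0.20, SE 0.074, adjusted p = 0.209). AKR1C3 was above it (0.28, SE 0.094, adjusted p = 0.16), but was at -0.03 when 0.1 instead of 1 was added to the FPKM. After quantile normalization FTH1 (-0.47, adjusted p = 0.00285) and AKR1C3 (0.51, adjusted p = 0.0272) passed, and after the length and GC correction AKR1C3 (0.39, adjusted p = 0.0275) and TXNRD1 (-0.19, adjusted p = 0.0302) passed.

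**Figure D3:**
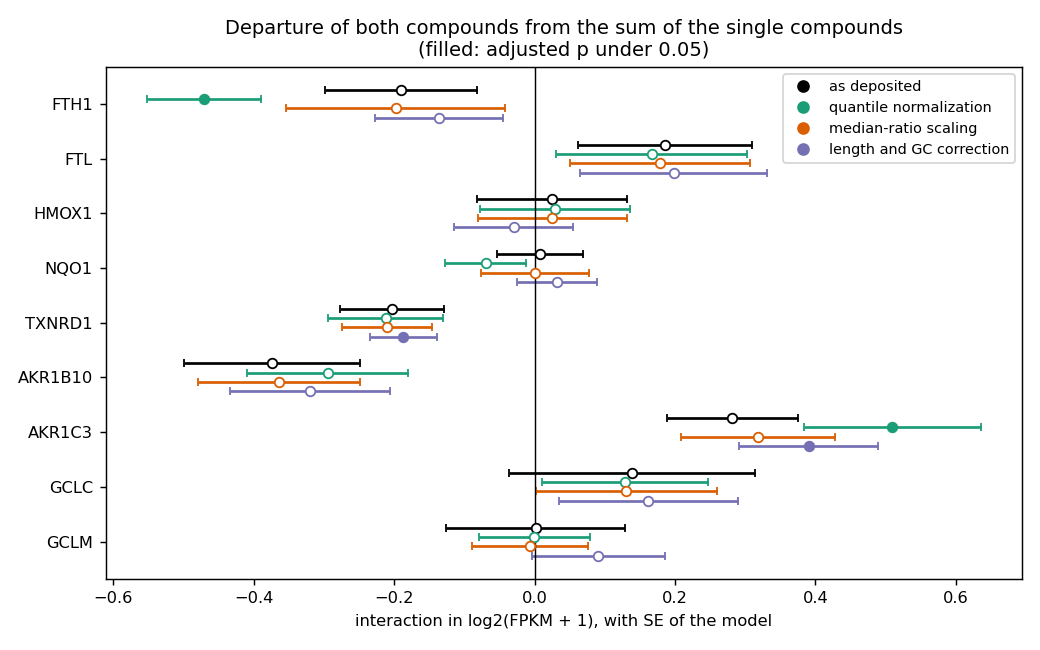
Interaction of the compounds (horizontal axis, log2(FPKM + 1) scale, whiskers are the SE of the model) for the 9 tested members, as deposited and after quantile normalization, median-ratio scaling and the length and GC correction, filled where the adjusted p was under 0.05. As deposited, AKR1B10 is at -0.37, TXNRD1 at -0.20 and AKR1C3 at 0.28 and no point is filled, while FTH1, AKR1C3 and TXNRD1 have filled points under other settings.

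Of 92 further genes of the pathway in 8 lists, 77 were tested. With gefitinib 40 were called higher and 19 lower, with AZ1366 27 and 18, and with both compounds 45 and 20. Over all tested loci 27.7% were called higher and 36.9% lower with gefitinib, 18.6% and 39.8% with AZ1366, and 29.9% and 49.4% with both, 64.6%, 58.4% and 79.3% in all. The number called with AZ1366, 45 of 77, is thus near the share of all loci. The median log2 change of the 77 genes was 0.18, 0.06 and 0.29, against -0.06, -0.10 and -0.15 over all tested loci. These lists were drawn up with earlier results of these data known.

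Among the 10 regulators, 3 rose and 6 fell with gefitinib, where 27.7% of all loci rose and 36.9% fell. NFE2L2 itself was at 54.8 ± 2.40 FPKM in vehicle, 63.9 ± 6.70 in gefitinib, 45.6 ± 9.29 in AZ1366 and 52.4 ± 6.76 in combination libraries (SD, n = 4). Its log2 change was 0.21 with gefitinib (adjusted p = 0.105), and it fell by 0.28 with AZ1366 (adjusted p = 0.0398). Under median-ratio scaling these became 0.28 (adjusted p = 0.00512) and -0.16 (adjusted p = 0.0898). The gefitinib change of NFE2L2 also passed after quantile normalization (0.26, adjusted p = 0.0215) and after the length and GC correction (0.21, adjusted p = 0.0417). It passed as well with only the libraries compared (adjusted p = 0.0185) and without AZ1366 replicate 1 (adjusted p = 0.0291). The NFE2L2 call with AZ1366 was also lost without vehicle replicate 1, 2 or 3 or AZ1366 replicate 2, 3 or 4 (adjusted p of 0.0653 to 0.139). It was lost too after quantile normalization (adjusted p = 0.0607), with no filter on low values (adjusted p = 0.0805) and with only the libraries compared (adjusted p = 0.0554). KEAP1 fell with gefitinib (-0.18, or -0.10 with adjusted p = 0.0765 after quantile normalization) and AZ1366 (-0.35). The KEAP1 call with gefitinib was lost in 9 of the 16 fits that left out 1 library (adjusted p of 0.05 to 0.147). SQSTM1, an autophagy receptor that binds KEAP1, rose with gefitinib (0.72). BACH1, a repressor of HMOX1, rose with gefitinib (0.41), and the small MAF gene MAFF fell with both gefitinib (-0.58) and AZ1366 (-0.35, or -0.07 with adjusted p = 0.329 after the length and GC correction). RBX1, a subunit of the KEAP1 ubiquitin ligase, rose with AZ1366 (0.49), and NFE2L1, a relative of NFE2L2, fell with AZ1366 (-0.65).

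Of 10 other aldo-keto reductases 4 were tested. AKR1A1 rose (0.53) and AKR1E2 fell (-0.34) with gefitinib, and AKR1B1 rose (0.44) and AKR7A2 fell (-0.19, or -0.08 with adjusted p = 0.136 after median-ratio scaling) with AZ1366. AKR1C2 was below the filter, with means of 0.0303, 0.0579, 0.0370 and 0.143 FPKM for vehicle, gefitinib, AZ1366 and both. Of 17 tested genes of drug and quinone metabolism, 11 rose and 3 fell with gefitinib (27.7% and 36.9% of all loci), led by ALDH3A1, an aldehyde dehydrogenase (1.32), and the glutathione S-transferases GSTM4 (1.18) and GSTM2 (0.79). With AZ1366 5 rose and 1 fell, where 18.6% and 39.8% of all loci did. Among those that rose were MGST2 (0.82) and the epoxide hydrolase EPHX1 (0.39), and the exporter ABCC1 fell (-0.48).

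Of 10 tested glutathione genes, 5 rose and 2 fell with gefitinib, where 27.7% and 36.9% of all loci did, and 2 rose and 1 fell with AZ1366, where 18.6% and 39.8% did. GPX4, which reduces lipid peroxides, rose with gefitinib (0.73), as did CHAC1 (0.66), which degrades glutathione, GPX3 (0.35) and the cystine transporter SLC7A11 (0.29). With AZ1366 GLRX, a glutaredoxin, rose (0.75), SLC3A2, the partner of SLC7A11, fell (-0.38), and SLC7A11 was at -0.10 (adjusted p = 0.134). In the thioredoxin and peroxiredoxin list of 13, 7 rose and 2 fell with gefitinib, where 27.7% and 36.9% of all loci did. The number called with gefitinib is near the share of all loci, 64.6%. With AZ1366 9 rose and 4 fell, where 18.6% and 39.8% of all loci did. SRXN1, sulfiredoxin, fell with both (-0.60 and -0.43), as did OSGIN1 (-0.45 and -0.34). PRDX1 rose with both (0.24 and 0.29), PRDX5 rose with gefitinib (0.31) and PRDX3 with AZ1366 (0.51), and TXN rose with AZ1366 (0.25) and was at 0.04 with gefitinib (adjusted p = 0.724). After the length and GC correction PRDX1 no longer passed (0.13 and 0.12, adjusted p = 0.0918 and 0.123), and TXN was at -0.06 with AZ1366 (adjusted p = 0.503). The TXN call with AZ1366 was also lost after quantile normalization (0.12, adjusted p = 0.196) and with no filter on low values (adjusted p = 0.0779). It was lost too with only the libraries compared (adjusted p = 0.051) and without vehicle replicate 1 or 3 or AZ1366 replicate 3 (adjusted p of 0.068 to 0.152).

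All 5 listed genes of NADPH supply were tested, and 4 rose with gefitinib and 5 with both compounds, where 27.7% and 29.9% of all loci rose. With AZ1366 1 rose and 1 fell, where 18.6% and 39.8% of all loci did. IDH1 (0.57), ME1 (0.40) and PGD (0.24) rose with gefitinib. With AZ1366 IDH1 rose (0.37) and TKT fell (-0.21, or 0.09 with adjusted p = 0.152 after the length and GC correction). SOD2, the mitochondrial superoxide dismutase, rose 1.12 with gefitinib, 0.30 with AZ1366 and 1.74 with both, and CAT and SOD1 rose with gefitinib (0.35 and 0.22) and AZ1366 (0.19 and 0.27). SOD1 no longer passed after quantile normalization (adjusted p = 0.079 and 0.0831).

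Of 15 tested genes of heme and iron handling, 6 rose and 5 fell with gefitinib, 4 rose and 5 fell with AZ1366, and 6 rose and 6 fell with both compounds. The numbers called are near the shares over all loci, 64.6% with gefitinib, 58.4% with AZ1366 and 79.3% with both. TFRC, the transferrin receptor that brings iron into the cell, was at 194 ± 4.06 FPKM in vehicle, 134 ± 3.72 in gefitinib, 170 ± 7.10 in AZ1366 and 111 ± 2.69 in combination libraries (SD, n = 4). TFRC thus fell where FTH1 rose, with log2 changes of -0.53 (adjusted p = 1.35e-08), -0.19 (adjusted p = 0.00155) and -0.80 (adjusted p = 1.99e-11). The AZ1366 change of TFRC was -0.07 (adjusted p = 0.233) after median-ratio scaling and -0.08 (adjusted p = 0.0751) after the length and GC correction. ACO1, which encodes an iron regulatory protein, fell by 0.51, 0.34 and 0.79, and HMOX2, the constitutive heme oxygenase, fell by 0.70, 0.41 and 0.93. BLVRA, which reduces the biliverdin that heme oxygenase makes, rose with gefitinib (0.53) and AZ1366 (0.27, or 0.09 with adjusted p = 0.168 after the length and GC correction). NCOA4, the receptor for ferritin autophagy, rose with gefitinib (0.19) and was at -0.11 with AZ1366 (adjusted p = 0.108).

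**Figure D4:**
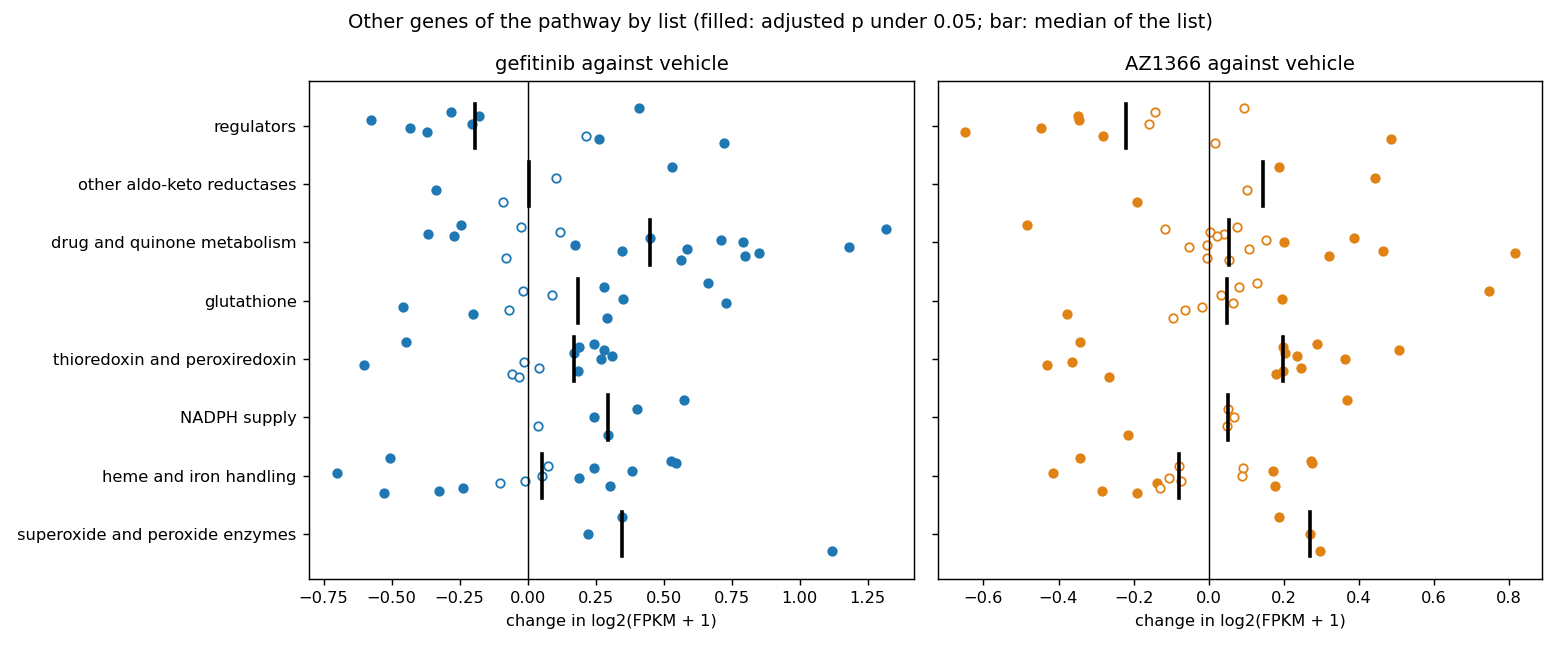
Change in log2(FPKM + 1) against vehicle (horizontal axis) of the 77 tested genes of the 8 pathway lists, with gefitinib (left) and AZ1366 (right), 1 point per gene, filled where the adjusted p was under 0.05, with a bar at each list's median. The median of drug and quinone metabolism is 0.45 with gefitinib and 0.06 with AZ1366, and the median of the regulators is -0.19 and -0.22.

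The loci whose 3 log2 changes against vehicle lay nearest to a member were found by Euclidean distance over the tested loci. Nearest to FTH1 were C11orf67 (distance 0.0581), RPS27L (0.0867) and HSPB1 (0.104). Nearest to AKR1B10 were GCNT3 (0.115), CYSLTR1 (0.153) and TM4SF1 (0.162), and nearest to HMOX1 were ADSSL1 (0.0398), BBS9 (0.0415) and C14orf159 (0.0573). The distances describe likeness over 4 group means that share their libraries.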

How the data were processed

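PolyA RNA of 16 libraries was sequenced after TruSeq version 2 preparation, per the labels' protocols. The authors deposited FPKM per locus. TopHat 1.4.1, Cufflinks 1.3.0 and Cuffdiff are listed with hg19 in the submitters' processing notes, and annotation, strand and any further scaling are not given in the sources used here. Depth is unknown: low values showed no clear steps of whole reads (fullest bin of ratios at most 9.42%).

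Loci with a mean of at least 1 FPKM were tested with limma 3.58.1 (R 4.3.3) on log2 values of FPKM plus 1, with treatment as a 4-level factor, a mean-variance trend, 12 residual degrees of freedom and two-sided p-values. AKR1C1 and within-library ratios were compared by exact permutation tests over libraries. In simulated data for gefitinib against vehicle (11647 loci, 200 changed), 35.2% of log2 changes of 0.25, 90.2% of 0.5 and 100% of 1 were recovered. Far more loci were called in the data themselves (7521), so these shares do not give the power of the fit used here. Same-numbered gefitinib and combination libraries deviated together in all 4 pairs (correlations of 0.224 to 0.321), so the blocked value stands beside the call it changes between these groups. Over all groups 16 of 24 pairs exceeded 0.1 (range -0.447 to 0.539), and the labels give no shared batch or day.

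All members were named; of each list, up to 3 called genes with the smallest p with gefitinib and with AZ1366, plus 9 fixed genes (NFE2L2, KEAP1, SLC7A11, TXN, SRXN1, PRDX1, AKR1C2, TFRC and NCOA4). Of the listed genes 1 is not reported here. Members and lists were chosen with earlier results of these data known. Alternatives were another pseudocount, filter and scaling, no trend, the replicate number as a block, only the libraries compared, and leaving out each library. The length and GC correction (10230 loci) and leaving out vehicle replicate 1 with AZ1366 replicate 1 were chosen after seeing the data.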

Additional observations from a re-analysis of the deposited data

Results flagged for a closer look

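In 7 of the 40 groups of member values, 1 library lay apart from the other 3 by a Dixon ratio above its 95% critical value, which chance gives in about 1 of 20 groups. AKR1C1 was highest in gefitinib replicate 2 (0.181 FPKM) and in AZ1366 replicate 2 (0.0947 FPKM). AKR1C3 was highest in vehicle replicate 1 (0.425 FPKM), as was GCLC (8.80 FPKM). In AZ1366 replicate 1 TXNRD1 was highest (169 FPKM) and FTH1 lowest (1424 FPKM). FTL was highest in replicate 2 of the combination (1133 FPKM).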

How the results depend on the processing

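Of 63 member effects in the limma fit 41 were called, 33 of them under every alternative that tested them, and 0 called effects changed sign. The number of loci called for the interaction was 212, against 620 after quantile normalization, 419 after median-ratio scaling, 581 after the length and GC correction and 101 to 513 when single libraries were left out, and the members called for it were 2, not 0, after quantile normalization and after the length and GC correction. Among members, sign changes touched uncalled effects. After quantile normalization TXNRD1 (-0.0193) and FTL (-0.0328) changed sign with AZ1366 against vehicle, GCLC (-0.0261) with gefitinib against AZ1366, and NQO1 (-0.0696) and GCLM (-2e-04) in the interaction. After the length and GC correction FTL (-0.0276) did so with AZ1366, AKR1B10 (-0.0113) for both against AZ1366, GCLC (-0.0054) for gefitinib against AZ1366 and HMOX1 (-0.0301) in the interaction. A pseudocount of 0.1 gave interactions of -0.0329 for AKR1C3 and -3e-04 for GCLM, and median-ratio scaling -0.0067 for GCLM. Without vehicle replicate 1 and AZ1366 replicate 1 together TXNRD1 with AZ1366 was -0.0059 and the HMOX1 interaction -0.0366. With 1 added to each FPKM the log2 ratio of AKR1C1 to AKR1C3, both against AZ1366, was -0.75. For the pathway genes, whose settings were run after seeing the data, TXN with gefitinib was -0.0165 after quantile normalization, -0.158 after the length and GC correction, -0.0341 without vehicle replicate 1 and AZ1366 replicate 1 together, and -0.0341 to 0.105 with single libraries left out. With AZ1366 NCOA4 was 0.0178 after median-ratio scaling, and TKT and TXN, both called as deposited, were 0.0919 and -0.0617 after the length and GC correction. The causes were not tested.

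Leaving out single libraries gave ranges of -0.0264 to 0.0695 for AKR1B10 (both against AZ1366), -0.0192 to 0.211 for GCLC (gefitinib against AZ1366), -0.0064 to 0.0495 for TXNRD1 (AZ1366), -0.0168 to 0.025 for NQO1, -0.063 to 0.106 for GCLM and -0.0271 to 0.072 for HMOX1 (interaction). The log2 ratios for both against AZ1366 ran from -0.124 to 0.0448 for FTH1 to FTL and from -0.0586 to 0.0514 for GCLM to GCLC. AKR1C1 differences in FPKM ran from -0.0262 to 0.0182 (AZ1366 against vehicle), 0.0364 to 0.0808 (gefitinib against vehicle), 0.147 to 0.191 (both against vehicle), 0.0921 to 0.128 (both against gefitinib), 0.155 to 0.187 (both against AZ1366) and 0.0449 to 0.0725 (gefitinib against AZ1366).

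With the replicate number as a block, 7864 loci were called with gefitinib, against 7521, and 2 member calls were gained, GCLC with gefitinib (adjusted p = 0.0244) and HMOX1 for both against gefitinib (adjusted p = 0.0417). No other member call changed with the block.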
